A study of Mus musculus with 24 samples.

Results

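The genes described here are 37 genes of fatty acid oxidation and its control by the nuclear receptor PPAR-alpha, chosen by name, and all 37 were found by symbol among the 56205 genes of the mouse liver count table. PPAR-alpha, encoded by Ppara, is activated in hepatocytes by fatty acids, pairs with a retinoid X receptor and switches on genes that bring fatty acids into mitochondria and peroxisomes and shorten them there. Mitochondrial beta-oxidation starts with the carnitine shuttle and ends with thiolases, and hepatocytes turn much of the acetyl-CoA it yields into ketone bodies. Peroxisomes shorten very long chains, and the Cyp4a enzymes oxidize fatty acids at the far end of the chain.

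Whole-liver RNA was sequenced from C57BL/6J mice without an engineered allele in the labels, giving 12 libraries for a high-fat diet (labelled FFD, and made with palm oil fat, fructose and cholesterol) and 12 for the matching control diet, all after 20 weeks of feeding. The study's methods place the start of the diets at 8 to 10 weeks of age. Both sexes were used, but the labels do not give the sex of a library. Xist, the RNA of the inactive X chromosome, had over 1000 counts in replicates 1 to 6 of both diets and at most 3 in replicates 7 to 12, so these are called the Xist-high and the Xist-low set, with 6 libraries per diet in each. Ddx3y, a gene of the Y chromosome, had 0 counts in every Xist-high library and 448 to 1016 in the Xist-low libraries. Whatever else followed the replicate numbers cannot be told apart from this split. Nothing states that each library came from its own mouse, so the p-values measure the spread between libraries.

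Control libraries held 14468418 to 22112552 counts on genes, and FFD libraries 16490817 to 21213070. Levels are CPM after TMM scaling (TMM CPM), that is, counts relative to the scaled library size, and the scaling factors were 0.679 to 1.01 in control libraries and 0.994 to 1.34 in FFD libraries. All 37 genes passed the filter of at least 1 count in at least 12 libraries, as 17913 genes did, and the lowest count of any of them in a library was 22. The scaling matters to every value below: the median log2 fold change of all 17913 genes was -0.03 with TMM and 0.26 when only library totals were used. Control replicate 10 stood apart, with the lowest total, 3.65% of its counts on mitochondrially encoded genes against 6.04% to 8.68% in the other control libraries, and the lowest number of genes detected. Of 12 hepatocyte markers, all of them detected, 8 were lower on FFD and 0 higher (2 were lower with library totals). Their summed level was 110221 to 170958 TMM CPM in control and 59592 to 149340 in FFD libraries. All 8 markers of monocyte-derived macrophages were higher, with sums of 60.3 to 189 against 179 to 1007, and so were 5 of 9 stellate cell markers. In whole liver, fewer hepatocytes and less RNA per hepatocyte cannot be told apart, and the part of cell composition in the values below was not tested.

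On FFD, 1 of the 37 genes rose and 2 fell, with genes called where the adjusted p did not exceed 0.01 and the log2 fold change was over 0.5 in size. The gene that rose was Acaa1b, a peroxisomal thiolase. The genes that fell were Creb3l3 and Ppargc1a, both regulators of the pathway. Among all genes tested, 13.2% were higher and 4.99% lower by the same rule, and of the members 2.7% were higher and 5.41% lower. With a looser rule, an adjusted p up to 0.05 and any fold change, 1 member was higher and 10 were lower, against 20.7% higher and 18.9% lower of all genes. Most members showed small differences: 26 of 37 had an absolute log2 fold change under 0.5, and for 17 the whole 95% interval lay between -0.5 and 0.5. Of the members, 30 had a fold change below 0 with TMM and 15 with library totals, and the median moved from -0.24 to 0.03. Of all 17913 genes, 9456 were below 0 with TMM and 4565 with library totals. With library totals 1 member was higher and 0 were lower (21.4% and 1.26% of all genes), and at the looser threshold 5 were higher and 1 lower (37.8% and 4.16% of all genes). The 1 was Creb3l3, and the 5 were Acaa1b, Ehhadh, Hsd17b4, Bdh1 and Pdk4.

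**Figure D1:**
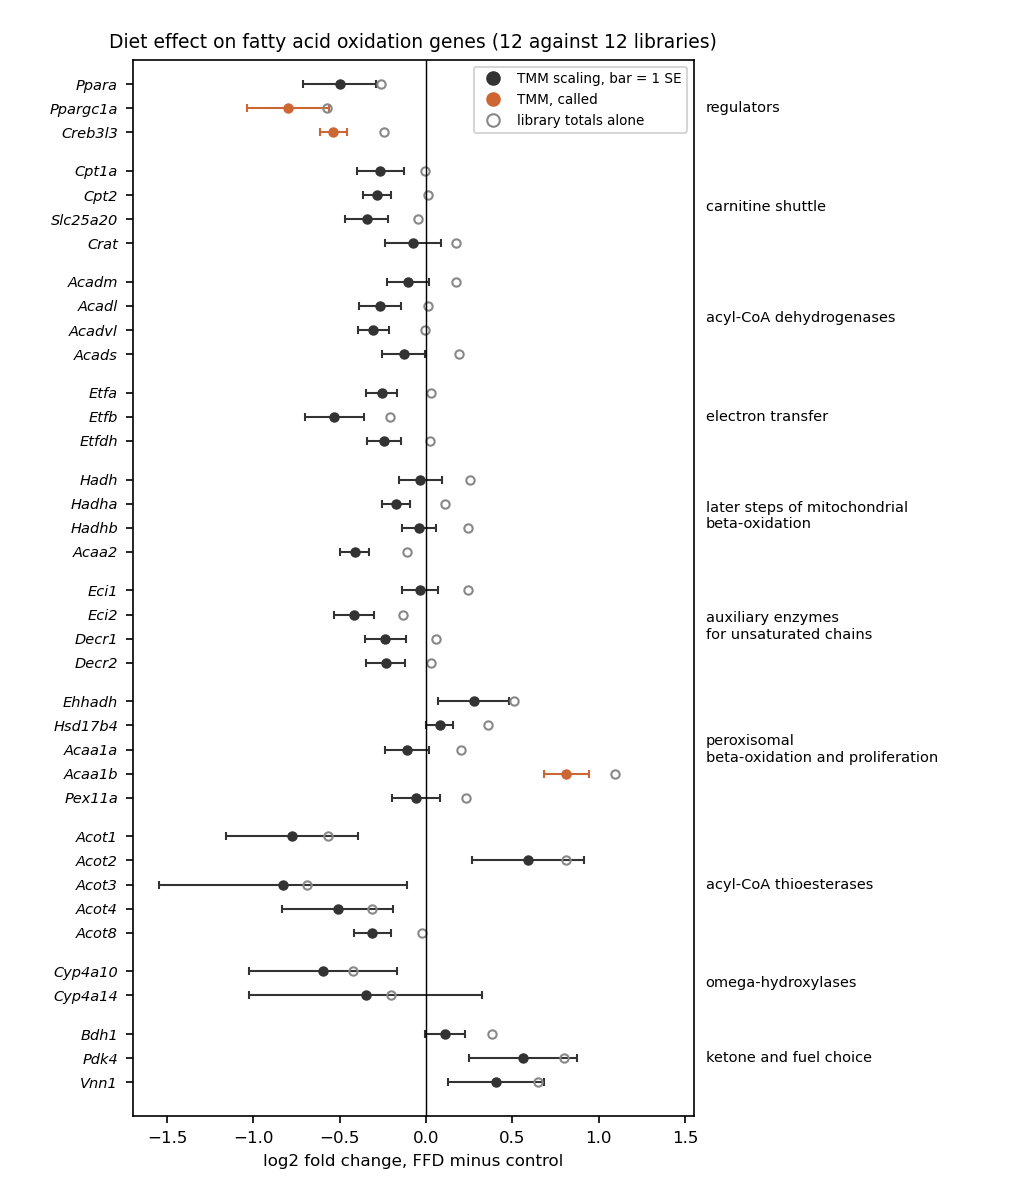
Log2 fold change of each of the 37 genes, FFD minus control, grouped by role, with TMM scaling (filled points, bars of 1 standard error, orange where called) and with library totals alone (open points). Acaa1b stands at 0.81 and Creb3l3 at -0.54 with small errors, while the open points lie to the right of the filled ones.

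Among the regulators, Creb3l3 gave the clearest separation. It encodes CREBH, a transcription factor held in the endoplasmic reticulum that acts with PPAR-alpha in fasting (ENSMUSG00000035041, GRCm38, chr10:81084324-81098874, minus strand). Its level was 329 to 449 TMM CPM in the control libraries, with a median of 404, and 229 to 314 in the FFD libraries, with a median of 263. On the TMM CPM scale the diets did not overlap. That held for 0.402% of all genes in this direction and 1.48% in the other, and for no other member. With library totals the diets overlapped: control replicate 10, with 4360 of 14468418 counts, lay below FFD replicate 6, with 6256 of 18744081. The log2 fold change was -0.54 (SE 0.08, adjusted p = 9.46e-06). It was -0.41 in the Xist-high set and -0.65 in the Xist-low set. With library totals it shrank to -0.25 (adjusted p = 0.00527) and was no longer past the fold threshold.

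Ppargc1a, the gene of the coactivator PGC-1alpha that drives mitochondrial genes, was the least abundant member per length of exon, with a median of 1.40 TMM CPM per kilobase in control. Its level was 3.77 to 18.0 TMM CPM in control (median 9.21) and 2.75 to 13.4 on FFD (median 5.95), and the diets overlapped. The log2 fold change was -0.80 (SE 0.24, adjusted p = 0.00888). This call was close to its threshold and was lost when any of 16 of the 24 libraries was left out, with adjusted p of up to 0.0202, while the direction did not change. Within the sets, whose levels differed, the values were -0.73 (adjusted p = 0.0312) and -0.88 (adjusted p = 0.00781). FFD replicate 3 held 13.4 TMM CPM against 6.22 to 7.87 in the other 5 Xist-high FFD libraries.

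Ppara itself (GRCm38, chr15:85734983-85802819, plus strand) was at 30.3 to 158 TMM CPM in control (median 100.3) and 29.0 to 110 on FFD (median 66.3). The difference of -0.50 (SE 0.21, adjusted p = 0.0603) did not pass. In the Xist-high set the medians were 86.3 in control and 91.0 on FFD, a log2 fold change of -0.05 (SE 0.15). In the Xist-low set they were 111 and 57.8, a log2 fold change of -1.03 (SE 0.31, adjusted p = 0.0176). Control replicate 10, with 30.3 TMM CPM, lay far below the other 5 Xist-low control libraries and within the FFD range. Without it the value in this set was -1.22 (adjusted p = 0.000304) and past the threshold. The difference between the sets, Xist-low minus Xist-high, was -0.99 (adjusted p = 0.0863) with all libraries and -1.18 (SE 0.27, adjusted p = 0.00535) without control replicate 10. It was -0.70 (adjusted p = 0.211) with library totals.

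**Figure D2:**
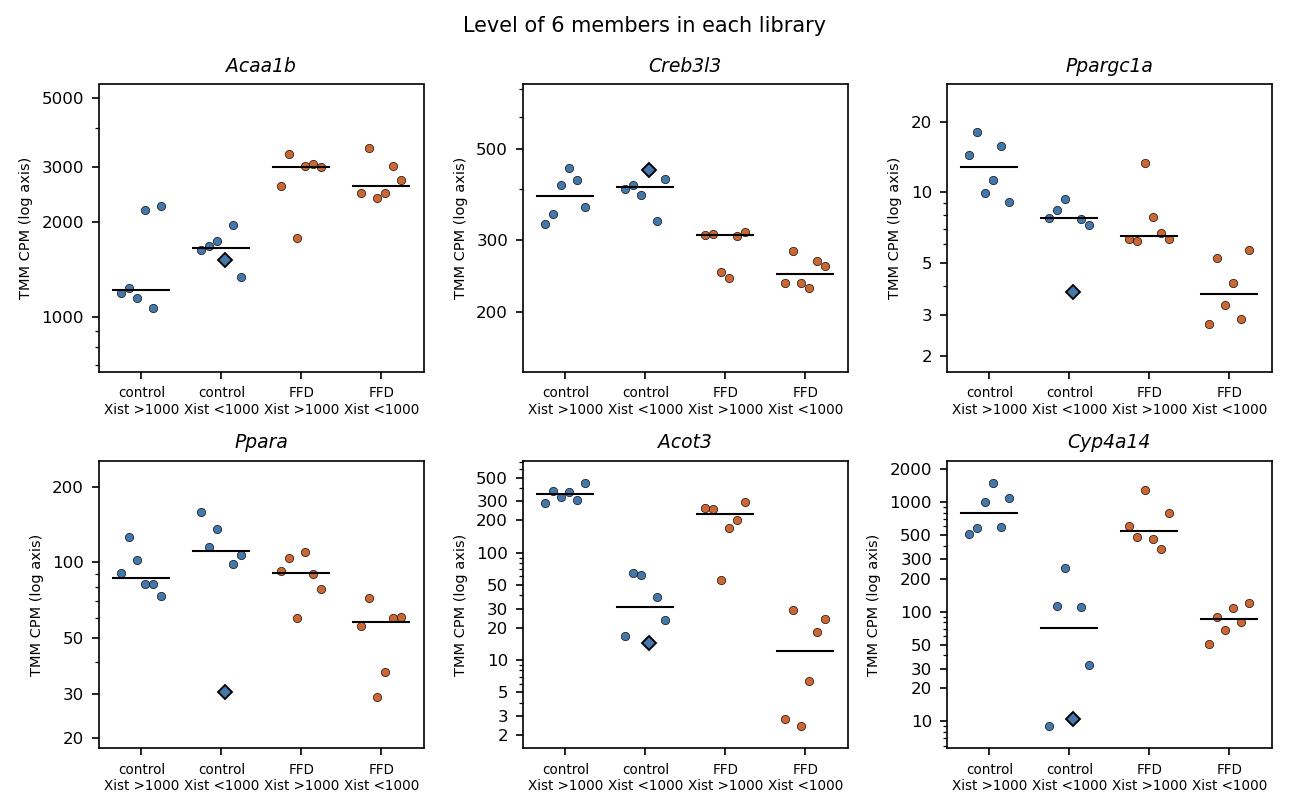
Level of 6 members in each library as TMM CPM on a log axis, by diet and by Xist set; each point is 1 library, lines are medians of 6 and the diamond is control replicate 10. Creb3l3 does not overlap between the diets on this scale, while Acot3 and Cyp4a14 separate by set rather than by diet.

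The promoters of the members were searched for the element that PPAR-alpha and its partner bind, a direct repeat of AGGTCA with 1 base of any kind between the copies. RefSeq windows on GRCm38.p6, from 250 bases before to 50 after the start, were found for 30 of the 37 genes (33 windows), and not for Vnn1, Cyp4a14, Crat, Hsd17b4, Acaa2, Cyp4a10 and Decr1. No member's window held an exact copy on either strand, and 0.0396% of all 32851 windows did. With at most 2 mismatches outside the spacer, 4 of 33 member windows (12.1%) and 3.86% of all windows held a match. All 4 are shown so that their letters can be set beside the element, and each is read in the direction of the element, with the matched bases in capitals and 8 flanking bases on either side.
Creb3l3: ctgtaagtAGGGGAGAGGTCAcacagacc
Slc25a20: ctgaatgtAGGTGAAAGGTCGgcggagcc
Etfa: ttgggagtAGGGCAAAGGTAAgggtgtgc
Acot4: gcacagacCGGCCAAAGGTCAtgcttcgg
The Creb3l3 match is at chr10:81092780-81092808 and lies along the gene's minus strand, centred at position -203 from a RefSeq start at chr10:81092591. That start lies within the gene, and the window at the 5′ end of Creb3l3 held no match. The match of Slc25a20 is at chr9:108662134-108662162, along the plus strand and centred at position 12, within the transcript. That of Etfa is at chr9:55512300-55512328 on the strand opposite to the gene, centred at -71, and that of Acot4 at chr12:84038358-84038386, also opposite to the gene, centred at -7. All 4 have 2 mismatches. A match describes letters in a window and does not show binding, and Acaa1b, whose window held none, was the member that rose.

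From the carnitine shuttle to the auxiliary enzymes, a group of 19 members that includes the peroxisomal Decr2, values were small and their direction depended on the scaling. Of these members, 19 had a log2 fold change below 0 with TMM and 6 with library totals. Of all 17913 genes, 9456 and 4565 did. The smallest of these values also depended on single libraries: without control replicate 4 Hadh gave 0.05, Eci1 0.04 and Hadhb 0.02, and Hadh gave 0.03 without control replicate 10 and 0.02 without FFD replicate 9. With TMM 7 of the 19 were lower under the looser rule, against 18.9% of all genes, but none passed the fold threshold as well. With library totals none of the 19 was called at either threshold. Of all genes, 37.8% were higher and 4.16% lower under the looser rule then.

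In the carnitine shuttle, Cpt1a carries the rate-controlling step at the outer mitochondrial membrane. It was at 315 to 890 TMM CPM in control (median 725) and 381 to 798 on FFD (median 617), a log2 fold change of -0.26 (SE 0.14, adjusted p = 0.125). Control replicate 10 gave the lowest of these control values. Without that library the value within the Xist-low set moved from -0.40 (adjusted p = 0.175) to -0.55 (adjusted p = 0.00647). Cpt2, its partner at the inner membrane, was at 161 to 258 TMM CPM in control and 131 to 187 on FFD (-0.28, SE 0.08, adjusted p = 0.00826). Slc25a20, the carrier that exchanges acylcarnitine for carnitine, gave -0.34 (SE 0.13, adjusted p = 0.0309). Crat, which moves acetyl groups on and off carnitine, gave -0.08 (SE 0.16), with a 95% interval from -0.39 to 0.24.

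The acyl-CoA dehydrogenases take the first oxidation step for chains of different length. Acadvl, for very long chains, was lower at the looser threshold, from 351 to 618 TMM CPM in control (median 395) to 259 to 385 on FFD (median 335, -0.31, SE 0.09, adjusted p = 0.00852). Acadl (-0.27), Acads (-0.13) and Acadm (-0.11), for long, short and medium chains, did not pass, and the interval of Acadm ran from -0.35 to 0.13. The electron transfer flavoprotein takes the electrons of these enzymes. Its subunits Etfa and Etfb gave -0.26 (SE 0.09, adjusted p = 0.0252) and -0.53 (SE 0.17, adjusted p = 0.0145), and Etfdh, which passes the electrons on, gave -0.24 (adjusted p = 0.0553). For Etfb, control replicate 10 held 726 TMM CPM against 201 to 264 in the other 5 Xist-low control libraries, and without it the value within this set moved from -0.79 to -0.34. Of the 51-base stretches (the read length) of Etfb transcripts, 43.6% also occur in the overlapping gene model Gm45233, and 26.6% of those of Acadvl in Dvl2, so part of the reads of these genes may have been assigned otherwise. Here and below, stretches were compared on both strands. The study's methods name a stranded library kit, and whether the counting used the strand is not given in the sources used here.

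In the later steps, Acaa2, the mitochondrial thiolase that releases acetyl-CoA, was at 829 to 1483 TMM CPM in control (median 951) and 624 to 833 on FFD (median 771). Its log2 fold change of -0.41 (SE 0.08, adjusted p = 0.000418) had the smallest adjusted p of the mitochondrial members but stayed short of the fold threshold, and it was -0.11 (adjusted p = 0.149) with library totals. Within the Xist-low set it was past the fold threshold at -0.52 (adjusted p = 0.00712), and at -0.40 without control replicate 10 it was not. Hadha and Hadhb, the subunits of the trifunctional protein, gave -0.17 and -0.04, and Hadh, the short-chain hydroxyacyl-CoA dehydrogenase, gave -0.03. The intervals of Hadhb (-0.23 to 0.15) and Hadh (-0.28 to 0.21) held no change of 0.5 in either direction. Of the enzymes that handle double bonds, Eci2 was at 186 to 343 TMM CPM in control and 154 to 298 on FFD (-0.42, SE 0.11, adjusted p = 0.00523), whereas its relative Eci1 gave -0.04 (SE 0.10). Decr1 and Decr2, the mitochondrial and peroxisomal dienoyl-CoA reductases, gave -0.24 (adjusted p = 0.121) and -0.23 (adjusted p = 0.0972).

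In the peroxisomal branch, Acaa1b (ENSMUSG00000010651, GRCm38, chr9:119148023-119157093, minus strand) was the only member to rise. It was at 1066 to 2259 TMM CPM in control (median 1575) and 1785 to 3440.2 on FFD (median 2864), with overlap. The log2 fold change was 0.81 (SE 0.13, adjusted p = 3.08e-05), or 1.76-fold. It was 0.89 (SE 0.21, adjusted p = 0.0111) in the Xist-high set, just short of the threshold, and 0.76 (SE 0.14, adjusted p = 0.000536) in the Xist-low set. There its diets did not overlap, as for 12.6% of all genes with FFD above, and those of Creb3l3, Acadvl, Acaa2, Etfa and Etfb did not overlap in the other direction, as for 9.66% of all genes. It was 1.10 (adjusted p = 1.86e-06) with library totals, and the call held without each library in turn. Per kilobase of exon Acaa1b was the most abundant member, with medians of 803 TMM CPM per kilobase in control and 1459.7 on FFD. In control its range of 543 to 1152 overlapped that of Acaa2 (547 to 978), the next in order. On FFD its range of 909.7 to 1753 lay above that of Acaa2 (412 to 549). The medians of Acaa1b made up 20.3% of the sum over the 37 members in control and 34.8% on FFD.

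The other peroxisomal members were not called. Ehhadh and Hsd17b4, the bifunctional enzymes of the inducible and the constitutive branch, gave 0.28 (SE 0.21, adjusted p = 0.298) and 0.08 (SE 0.08, adjusted p = 0.443). Pex11a, which takes part in peroxisome division, gave -0.06 (SE 0.14). Acaa1a, the related thiolase gene, also on chromosome 9, was at 269 to 659 TMM CPM in control (median 307) and 268 to 409 on FFD (median 331), with a log2 fold change of -0.11 and an interval from -0.36 to 0.14. Its highest control value, 659 TMM CPM, was in control replicate 10.

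A ratio of counts within a library does not depend on the scaling between libraries. Acaa1b had 2.30 to 6.57 counts per count of Acaa1a in control (median 4.52) and 5.08 to 10.2 on FFD (median 8.94), a difference of 0.90 on the log2 scale (two-sided permutation test with 100000 resamples, p = 2e-05, adjusted over 3 ratios 3e-05). It was 0.82 without control replicate 10, which gave the lowest ratio, 0.81 in the Xist-high set (exact permutation test, p = 0.00433, n = 6 per diet) and 0.99 in the Xist-low set (exact permutation test, p = 0.00216, the smallest that 6 against 6 allows). The genes are near-identical in part. Of all stretches of 51 bases, the read length in the study's methods, 30.1% of those in Acaa1b transcripts are shared with Acaa1a and 12.3% of those in Acaa1a with Acaa1b. Reads from these stretches could have been split or dropped in counting, so the levels of this pair are uncertain to that extent.

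**Figure D3:**
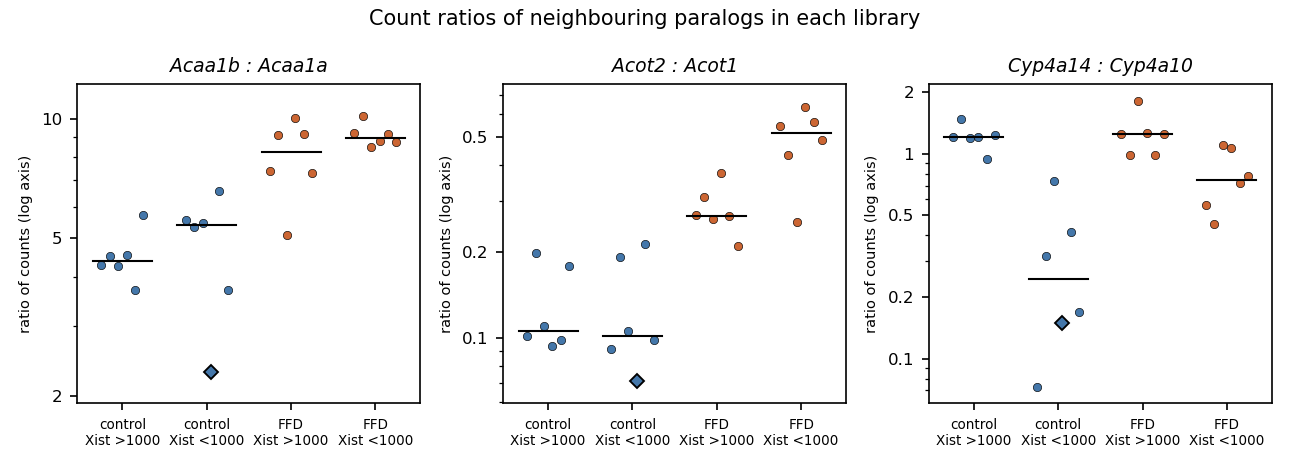
Ratio of counts of 3 pairs of related genes in each library on a log axis, by diet and by Xist set; each point is 1 library, lines are medians of 6 and the diamond is control replicate 10. Acaa1b to Acaa1a and Acot2 to Acot1 were higher on FFD in both sets.

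The acyl-CoA thioesterases, which cut acyl-CoA back to free fatty acid, lie side by side on chromosome 12 except for Acot8. Acot1 (cytosolic) was at 38.8 to 313 TMM CPM in control and 19.0 to 141 on FFD (-0.78, SE 0.38, adjusted p = 0.108). Acot2 (mitochondrial) was at 3.05 to 34.5 in control (median 11.7) and 10.4 to 36.2 on FFD (median 20.9), a log2 fold change of 0.59 (SE 0.33, adjusted p = 0.153). Neither passed over all libraries. In the Xist-low set Acot2 was higher on FFD by 1.36 (SE 0.33, adjusted p = 0.00506), and in the Xist-high set by 0.28 (SE 0.23, adjusted p = 0.469). The difference between the sets had an adjusted p of 0.117 with TMM and 0.0364 with library totals.

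Acot2 had 0.0724 to 0.214 counts per count of Acot1 in control (median 0.104) and 0.209 to 0.635 on FFD (median 0.343), so the ranges met at 1 edge. The difference was 1.56 on the log2 scale (two-sided permutation test with 100000 resamples, p = 1e-05, the smallest they can give, adjusted 3e-05). It was 1.16 in the Xist-high set and 1.97 in the Xist-low set (exact permutation test, p = 0.00216 in both, n = 6 per diet). Of the 51-base stretches of Acot2, 24.4% also occur in Acot1, so this pair is uncertain as well. The peroxisomal members gave -0.83 for Acot3 (SE 0.72), -0.51 for Acot4 (SE 0.32) and -0.31 for Acot8 (SE 0.11, adjusted p = 0.0237). The SE of Acot3 in this fit takes in its difference between the sets. By edgeR within the sets, Acot3 gave -0.77 (SE 0.27, adjusted p = 0.0703) in the Xist-high set. In the Xist-low set it gave -1.40 (SE 0.58, adjusted p = 0.0704), and -1.57 (adjusted p = 0.0385) without control replicate 10. None of these passed the threshold. With the Xist set as a covariate in the edgeR fit, Acot4 gave -0.64 (adjusted p = 0.00571) and was called lower. Acot8 was at 15.4 to 31.8 TMM CPM in control and 14.8 to 23.5 on FFD.

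Cyp4a10 and Cyp4a14, fatty acid omega-hydroxylases and standard target genes of PPAR-alpha in mouse liver, had wide ranges on both diets. Cyp4a10 was at 70.5 to 1223 TMM CPM in control (median 373) and 61.0 to 713 on FFD (median 282), with a log2 fold change of -0.60 (SE 0.43, adjusted p = 0.278). Cyp4a14 was at 9.08 to 1479.9 in control (median 380) and 50.6 to 1295 on FFD (median 246), with -0.35 (SE 0.68, adjusted p = 0.713). The intervals, -1.44 to 0.24 and -1.67 to 0.97, leave room for changes of over 2-fold. Single libraries moved both values: without FFD replicate 3 Cyp4a10 gave -0.78 and Cyp4a14 -0.71, and without control replicate 4 they gave -0.38 and -0.05. Most of the range was that between the sets. Within the Xist-low set Cyp4a10 gave -0.89 (adjusted p = 0.0647), and -1.07 (adjusted p = 0.00893) without control replicate 10. The ratio of Cyp4a14 to Cyp4a10 did not pass over all libraries (permutation test, p = 0.0765). Within the Xist-low set it went from a median of 0.244 to 0.747 (exact permutation test, p = 0.0108, n = 6 per diet), and in the Xist-high set it was 1.21 and 1.25 (exact permutation test, p = 0.768). Of the 51-base stretches of Cyp4a10, 29.2% also occur in other genes, mostly Cyp4a32 and Cyp4a31.

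The last 3 members concern the choice of fuel. Bdh1, the mitochondrial enzyme that makes beta-hydroxybutyrate, gave 0.11 (SE 0.12), and Vnn1, a pantetheinase that breaks down a precursor of coenzyme A, gave 0.41 (SE 0.28, adjusted p = 0.257). Pdk4, the kinase that shuts pyruvate dehydrogenase when fatty acids are burned, was at 2.24 to 16.1 TMM CPM in control (median 8.62) and 5.43 to 34.7 on FFD (median 10.9). Its log2 fold change was 0.56 (SE 0.31, adjusted p = 0.159), and 0.33 without FFD replicate 3.

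More members were called between the sets of libraries than between the diets. With diet and set in 1 fit, 9 of 37 members were higher in the Xist-high set and 0 were lower. Of all genes, 2.49% were higher and 2.09% lower. By diet, the same fit called 1 member higher and 4 lower (2418 and 1061 of 17913 genes). The set difference was larger in size than the diet difference for 20 of the 37, a count that was not made over all genes. Acot3 led with 3.58 (SE 0.38, adjusted p = 1.64e-07): it was at 287 to 446 TMM CPM in the Xist-high and 14.6 to 65.0 in the Xist-low control libraries. On FFD the ranges were 56.2 to 295 and 2.41 to 29.0, so the sets did not overlap in either diet. The share of all genes for which this held was not counted. Cyp4a14 followed with 3.14 (SE 0.40), at 511 to 1479.9 against 9.08 to 248 in control and 371 to 1295 against 50.6 to 121 on FFD. Cyp4a10 (1.90), Acot1 (1.67), Acot4 (1.41), Acot2 (1.18), Ppargc1a (0.89), Ehhadh (0.88) and Crat (0.50) were the others. These are thioesterases (Acot3 and Acot4 being peroxisomal), omega-hydroxylases, the carnitine acetyltransferase, Ehhadh of peroxisomal beta-oxidation and the coactivator. Acaa1b (-0.05, SE 0.13) and Creb3l3 (0.07, SE 0.08), which were called between the diets, were not called between the sets.

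**Figure D4:**
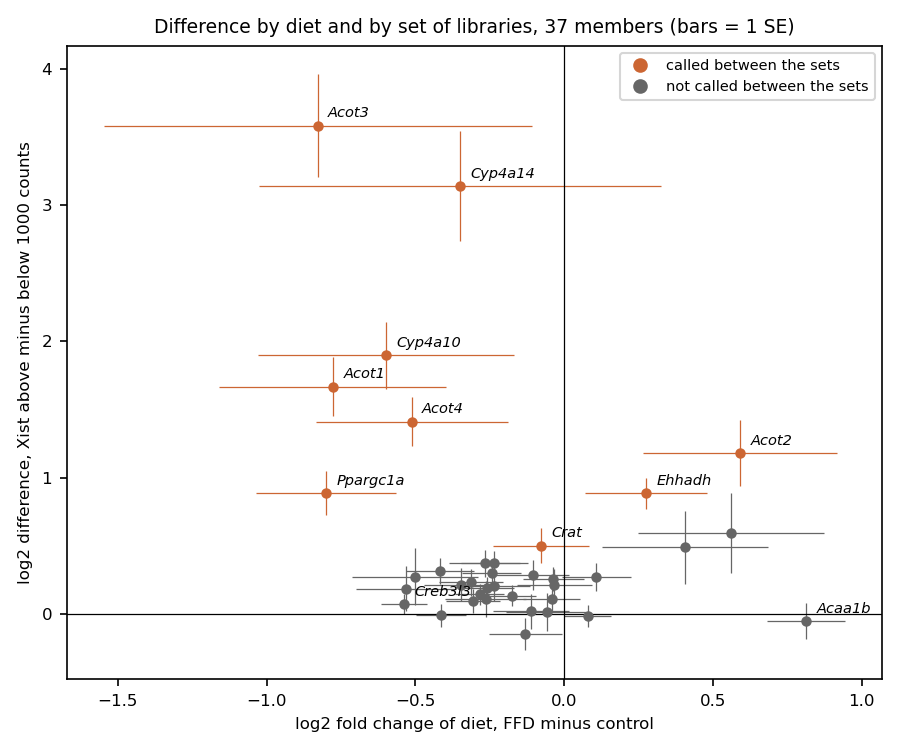
Log2 difference between the Xist sets (vertical, diet and set in 1 fit) against that between the diets (horizontal, diet only) for the 37 members. Bars are 1 standard error, and orange marks the 9 called between the sets. Acot3 and Cyp4a14 lie highest, at 3.58 and 3.14, and Acaa1b lies near 0 on the vertical axis.

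Within the sets, 0 members were called by edgeR in either direction in the Xist-high set, where 2.91% of all genes were higher and 0.896% lower. There 13 members had an unadjusted p under 0.05, as did 28.2% of all genes. At an adjusted p of at most 0.05, 1 was higher and 3 were lower, against 8.20% and 5.11% of all genes. In the Xist-low set 2 were higher (Acaa1b and Acot2) and 3 lower (Ppargc1a, Creb3l3 and Acaa2), where 14.3% of all genes were higher and 7.89% lower. Without control replicate 10 the Xist-low set gave 2 higher and 6 lower, the latter being Ppara, Ppargc1a, Creb3l3, Cpt1a, Acot4 and Cyp4a10, against 15.0% higher and 9.47% lower of all genes. The difference of the diet effect between the sets was tested directly by an interaction term at an adjusted p of at most 0.05. It was called for 0 members by edgeR and by DESeq2, against 10.2% of all genes by edgeR, and 3 members had an unadjusted p under 0.05. Without control replicate 10 it was called for Ppara alone (12.6% of all genes), and with library totals for 5 members (17.9% of all genes). With all libraries and TMM, the calls within the sets are therefore not shown to differ between them.

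Libraries of 1 diet and set also differed among themselves. Control replicate 4 gave the highest control value for 19 of the 37 members. Control replicate 10 gave the lowest control value for 13 members, among them Ppara, Cpt1a, Cyp4a10, Vnn1 and Pdk4, and the highest for 8, among them Acaa2, Etfb, Acadvl and Acaa1a. FFD replicate 9, with the highest TMM factor and the lowest hepatocyte marker sum, gave the lowest FFD value for 22 members. The same counts were not made over all genes, so they are not shown to be particular to the members.

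**Figure D5:**
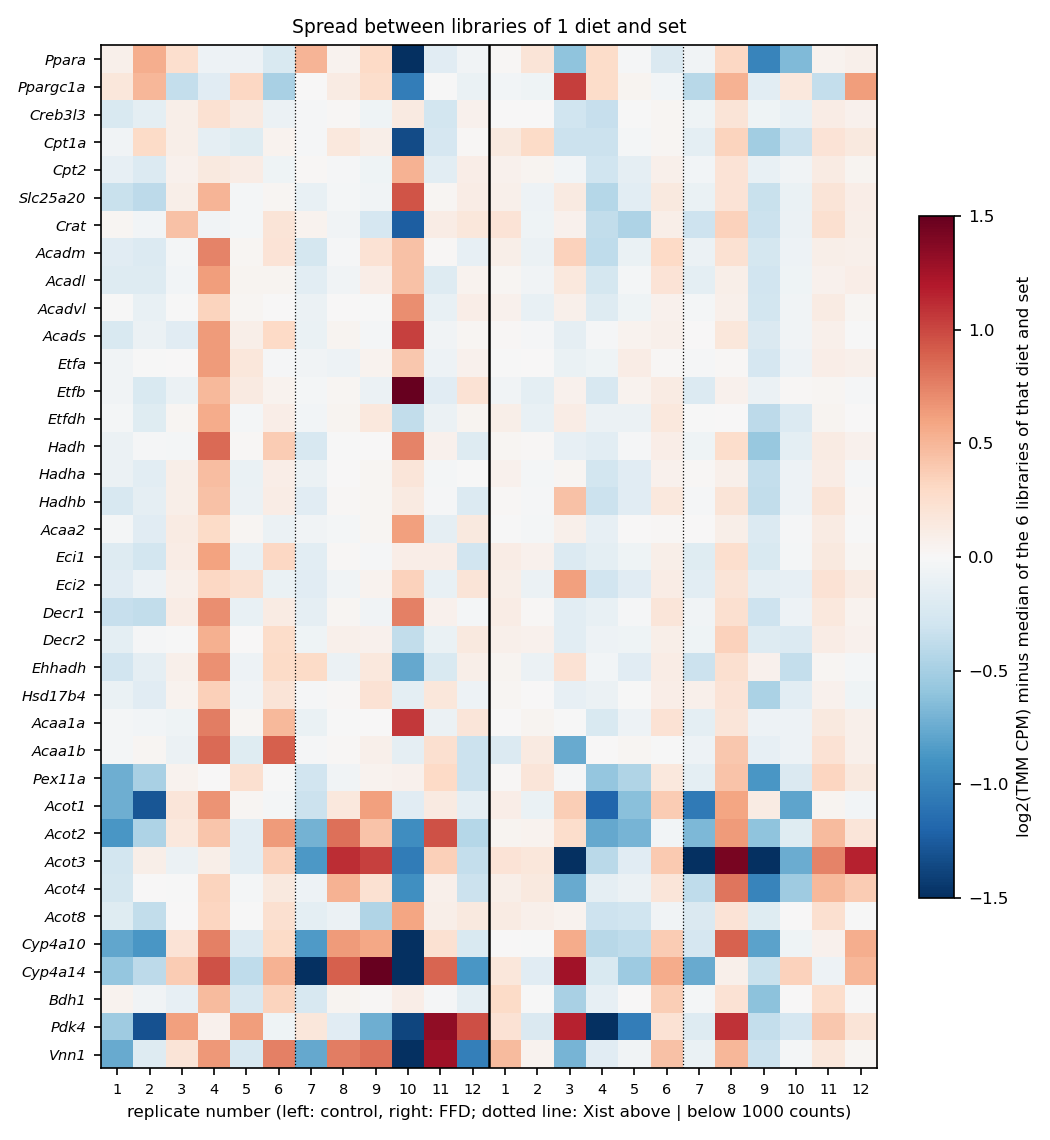
Log2 TMM CPM of each member in each library minus the median of the 6 libraries of its diet and set (red above, blue below; colours saturate at 1.5). Control replicate 10 is red for Etfb, Acads and Acaa1a and blue for Ppara, Cpt1a and Crat, and control replicate 4 is red for most mitochondrial enzymes.

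Levels of 3 pairs of members were compared across libraries on the log2(TMM CPM + 1) scale after subtracting the mean of each set within a diet, as 12 correlations, with permutation p-values from 100000 resamples. Cyp4a10 and Cyp4a14 varied together in control (n = 12, r = 0.88 and rho = 0.87, adjusted permutation p = 0.0021 for both) and on FFD (n = 12, r = 0.69 and rho = 0.73, adjusted permutation p = 0.0321 for both). When the 2 libraries with the most extreme Cyp4a10 levels were dropped, r was 0.88 on either diet. For Ppara and its target Cyp4a14, r was 0.32 in control (rho 0.10) and -0.32 on FFD (rho -0.18), and neither passed, with the lowest adjusted permutation p at 0.495. Without subtracting the set means the FFD value turned to r = 0.61 (rho 0.57, n = 12, adjusted permutation p = 0.0864 and 0.12), and rho in control turned to -0.38. Pdk4 and Cyp4a14 gave r = 0.19 in control (rho 0.15) and r = 0.72 on FFD (rho 0.68, n = 12, adjusted permutation p = 0.0504 and 0.0574), and the latter fell to 0.54 without the 2 farthest libraries. Both genes of a pair share the scaling factor of each library.

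Other genes of the pathway were counted in lists written down by name. Among all genes tested, 13.2% rose and 4.99% fell. Of 25 tested other PPAR-alpha target genes, 5 rose and 5 fell (20% each). The 3 with the largest changes were Aqp7, a glycerol channel (3.42, SE 0.82, 0 to 1.08 TMM CPM in control and 0.0498 to 3.61 on FFD, its control mean of 0.111 lying below the 0.175 that 3 counts equal), Ucp2, a mitochondrial carrier that macrophages also express (1.38, SE 0.22, 22.9 to 105 against 82.6 to 199), and Acot9, a mitochondrial thioesterase (1.30, SE 0.16, 2.61 to 5.49 against 6.22 to 13.5). Cd36 (1.04) and Aldh3a2 (0.62) rose as well. The 5 target genes that fell were Retsat (-0.75), Fgf1 (-0.74), Fabp1 (-0.73), Abcd3 (-0.70) and Acsl1 (-0.68). Of 17 regulators and partners of PPAR-alpha, 1 rose and 2 fell. Pparg, the lipid-storing relative of PPAR-alpha, rose from 2.89 to 14.3 TMM CPM in control to 12.9 to 28.4 on FFD (1.31, SE 0.21, adjusted p = 3.18e-05). Lpin1, a coactivator and phosphatidate phosphatase, fell (-1.76, SE 0.51, adjusted p = 0.00795) over a wide range of 34.9 to 1193 TMM CPM in control and 23.9 to 473 on FFD, and Sirt1, a deacetylase of PGC-1alpha, fell (-0.57, SE 0.13).

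Of 9 ketone body genes, Oxct1, the enzyme for using ketone bodies that hepatocytes lack, rose (1.35, SE 0.17, 2.94 to 7.98 against 9.50 to 19.7 TMM CPM), and Bdh2 fell (-0.85, SE 0.22). Of 8 tested genes of carnitine synthesis and transport, Cpt1c rose (1.22, SE 0.28, with 0.273 to 1.29 TMM CPM in control) and Shmt1 fell (-0.76, SE 0.18). Of 13 other mitochondrial oxidation enzymes, Acad12 rose (0.76, SE 0.12) and Acadsb, the dehydrogenase for short branched chains, fell (-0.75, SE 0.12). Of 7 other thioesterases Acot9 and Acot6 (0.78, SE 0.22) rose and Acot12 fell (-0.58, SE 0.09). None of the 15 peroxisome biogenesis genes was called by edgeR. All 15 were below 0 with TMM, 10 of them at an adjusted p of at most 0.05, but 4 were below 0 with library totals and 0 had an adjusted p of at most 0.05 then. With library totals, Shmt1 was the only one of the genes called lower in these lists that was still called lower. The genes that rose in these lists rose beside the macrophage and stellate cell markers, and which cells held their RNA was not tested.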

How the data were processed

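For 24 poly(A)-selected mouse liver libraries, the authors deposited unnormalized counts, 1 whole number per Ensembl gene and library. The submitters' processing notes name STAR 2.7.3a, bcl2fastq and the build mm10, while the counting annotation is not given in the sources used here. Symbols, exon lengths and coordinates came from GENCODE M21 (GRCm38, the same build). Counts were scaled by TMM and tested between the diets by the quasi-likelihood method of edgeR 4.0.16 (R 4.3.3) with no other term, and p-values were adjusted over 17913 genes by Benjamini-Hochberg. The standard error (SE) is the size of the log2 fold change over the root of its F statistic. Intervals of a fold change are normal intervals from its SE. The test was checked on simulated counts. No libraries of a diet were alike within sampling noise (chi-square per degree of freedom at least 9.48). At this depth 3 counts equal 0.175 TMM CPM in control and 0.148 in FFD libraries on average.

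From each list of other pathway genes, the 3 called genes with the largest absolute fold change are named. For the other PPAR-alpha target genes, all those called are named. Gyk, Tmlhe, Mmut and Acot15 were not matched by symbol, and Adipoq, Plin1 and Lep, markers of adipocytes, had too few counts to be tested, while Cfd was not called (0.51, SE 0.81). Of the other marker lists, 1 of 5 resident macrophage, 3 of 4 cholangiocyte, 1 of 4 sinusoidal endothelial, 0 of 4 T cell and 0 of 3 B cell markers were higher and 0 lower. The members and lists were chosen with earlier results of these data known. The alternatives tried were DESeq2 1.42.0, limma-voom (limma 3.58.1), library totals, DESeq2's size factors, 3 filters, 2 thresholds, a replicate block, the Xist sets, another pseudocount and each library left out. No protein sequences were used here. The result of another gene is not reported here.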

Additional observations from a re-analysis of the deposited data

Results flagged for a closer look

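Within each set of 6 libraries of a diet, 148 groups of values were searched for a highest or lowest library far from the others. Dixon's ratio was taken on TMM CPM without a log, and 19 were found. Chance flags about 1 in 20 groups of normally distributed values, and members of the pathway are not independent. Of the 19, 10 were control replicate 10, 7 control replicate 4 and 2 FFD replicate 3. In all of them the library was the highest of its 6, but this scale favours high flags over low ones. For Ppara, control replicate 10 lay below the other 5 Xist-low control libraries (30.3 against 98.3 to 158 TMM CPM) and was not flagged. A log scale was not tried. Control replicate 10 held 258 TMM CPM of Cpt2 (the other 5 Xist-low control libraries at 161 to 192), 247 of Slc25a20 (118 to 138), 618 of Acadvl (351 to 409), 465 of Acads (212 to 234), 573 of Hadh (290 to 357), 1483 of Acaa2 (882 to 1073), 300.3 of Decr1 (162 to 186), 388 of Etfa (279 to 309), 726 of Etfb (201 to 264) and 659 of Acaa1a (295 to 360.4). All but Acaa1a encode mitochondrial proteins of fatty acid oxidation, and the mitochondrially encoded genes took 3.65% of the counts of this library.

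Control replicate 4 held 627 TMM CPM of Acadm (the other 5 Xist-high control libraries at 323 to 431), 454 of Acadl (255 to 302), 502 of Acadvl (369 to 405), 584 of Hadha (380.5 to 453), 359 of Decr1 (170.3 to 239), 459 of Etfa (284 to 332) and 359 of Etfdh (216 to 261). The share of mitochondrially encoded genes in it was 6.04%, against 6.33% to 8.14% in the other 5. FFD replicate 3 held 13.4 TMM CPM of Ppargc1a (6.22 to 7.87) and 298 of Eci2 (159 to 210.1). The cause of these levels was not tested.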

How the results depend on the processing

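The counts of all genes called higher (2372) and lower (894) moved by over 1.5 times with library totals (3827 and 226), in the Xist-high set alone (525 and 162) and under the looser rule of an adjusted p up to 0.05 and any fold change (3709 and 3388). The higher count did so with a minimum of 10 counts in every library (1226), and the lower count in the Xist-low set alone (1430) and at a fold threshold of 1 (216). Members called higher, 1, became 2 in the Xist-low set and 0 in the Xist-high set and at a fold threshold of 1. Members called lower, 2, became 0 with library totals, with the 10-count minimum, in the Xist-high set and at a fold threshold of 1. They became 1 with no filter, 4 with the Xist set as a covariate, and 10 at the looser threshold. The covariate added Acot4 (-0.64, adjusted p = 0.00571) and Etfb (-0.55, adjusted p = 0.00997). With each library left out in turn, all genes gave 2137 to 2464 higher and 745 to 995 lower, and members 1 to 1 higher and 1 to 3 lower. The lower count was 1 without any of 16 libraries, through the loss of Ppargc1a, and 3 without control replicate 11, through Etfb (-0.57, adjusted p = 0.00887). The call of Ppargc1a held without FFD replicates 3 and 4 and control replicates 6, 7, 8, 10, 11 and 12, with an adjusted p down to 0.000849. Acaa1b and Creb3l3 were called in all 24 of these fits. Members whose diet effect differed between the sets, 0, became 1 without control replicate 10 and 5 with library totals (17.9% of all genes), alternatives added after seeing the data. With a library left out, 5 members turned sign in at least 1 fit and 15 turned or moved by over 1.5 times, of which 0 were called. The sign of all 37 members held with DESeq2, DESeq2's size factors in edgeR, filterByExpr, no filter and the Xist covariate, while 22 of 37 kept it with library totals and 34 with the minimum of 10 counts. The correlations kept their side of the threshold with a pseudocount of 0.1 and without subtracting set means, though the latter turned the sign for Ppara and Cyp4a14 as given in the report. Except as stated here or in the report, the cause of these changes was not tested.

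The replicate numbers do not pair mice by any label. Libraries of the same number deviated together with correlations of -0.0935 to 0.541, not all above 0.1, so the replicate block is given only here: it called 2 members higher and 4 lower (2063 and 844 of all genes, 11.5% and 4.71%), adding Acot2 (0.84), Acot3 (-1.25) and Acot4 (-0.67), all 3 of which differ between the Xist sets that the numbers follow. Protein identity between the paralogs was planned and not run.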
